A study of Mus musculus with 6 samples.

Results

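The genes of the AMPA and kainate receptor subunits, Gria1 to Gria4 and Grik1 to Grik5, were followed in bulk RNA-seq of mouse dorsal root ganglia, which hold the cell bodies of the sensory neurons of trunk and limbs. The 9 genes were chosen by symbol and Ensembl identifier, not by their values, out of 54532 gene rows, and all 9 were measured in every library. Ganglia came from C57BL/6 mice aged 8 weeks in 2 groups of 3 libraries. The group called WT had the genotype hdac2-flop++, floxed Hdac2 alleles without Cre. The group called Hdac2 cKO had the genotype Adv-Cre+/hdac2-flop++, in which Cre under the Advillin promoter deletes Hdac2, a histone deacetylase gene, in primary sensory neurons. Both groups thus carried the floxed alleles, and no group carried Cre alone, so loss of Hdac2 and presence of Cre cannot be told apart. The sources used here do not say whether mice were pooled in a library, and the tests measure only the spread between these libraries.

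AMPA and kainate receptors are glutamate-gated cation channels built from 4 subunits around a shared pore. AMPA receptors (GluA1 to GluA4, encoded by Gria1 to Gria4) carry most fast excitatory transmission, and their calcium permeability is set by GluA2. Kainate receptors combine subunits that form channels by themselves (GluK1 to GluK3, from Grik1 to Grik3) with high-affinity subunits that need such a partner (GluK4 and GluK5, from Grik4 and Grik5). Sensory neurons of the dorsal root ganglion are known for kainate currents carried by GluK1-containing receptors, and both families also act on the central terminals of these neurons and on their spinal targets.

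The pore loop of these subunits holds the Q/R site, at which adenosine deamination of the pre-mRNA can replace the codon for glutamine by one read as arginine in Gria2, Grik1 and Grik2. The coding stretch around this codon is shown because editing of this site is known to lower calcium permeability and the matching codon was found in all 9 genes. Each sequence runs 5′ to 3′ on the coding strand, as DNA letters of the GENCODE M21 transcript (GRCm38, the assembly of mm10), with the unedited Q/R-site codon in capitals.
Gria1: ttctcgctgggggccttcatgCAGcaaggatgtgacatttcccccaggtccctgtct
Gria2: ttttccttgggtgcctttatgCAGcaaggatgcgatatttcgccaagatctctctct
Gria3: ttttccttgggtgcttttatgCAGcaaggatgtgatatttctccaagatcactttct
Gria4: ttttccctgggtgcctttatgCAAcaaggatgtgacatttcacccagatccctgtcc
Grik1: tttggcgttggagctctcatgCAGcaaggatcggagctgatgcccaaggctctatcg
Grik2: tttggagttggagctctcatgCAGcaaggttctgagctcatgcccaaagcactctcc
Grik3: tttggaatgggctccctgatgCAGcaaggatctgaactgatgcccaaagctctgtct
Grik4: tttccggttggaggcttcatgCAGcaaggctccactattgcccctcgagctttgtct
Grik5: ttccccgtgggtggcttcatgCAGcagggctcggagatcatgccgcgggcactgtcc

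The Q/R-site codon was CAG in 8 of the genes and CAA, also glutamine, in Gria4. In Gria2 it was codon 607 of the transcript used, in exon 11, on the minus strand of mm10 at chr3:80706911-80706913. In Grik1 it was codon 636, in exon 13, on the minus strand at chr16:87940542-87940544. In Grik2 it was codon 621, in exon 13, on the minus strand at chr10:49244329-49244331. Of the 57 bases, AMPA subunit pairs shared 45 to 52 and pairs among Grik1 to Grik3 shared 45 to 49. Grik4 and Grik5 shared 39, and an AMPA with a kainate subunit shared 34 to 39. The gene-level counts do not show which codon the transcripts carried, so editing was not analysed here.

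Hdac2 itself was 2816, 1715 and 3498 in the WT libraries and 499, 372 and 535 in the knockout libraries. Values are normalised counts, that is gene reads scaled by one size factor for each library, and the libraries of a group are always given in the order of their numbers, WT 1 to 3 and Hdac2 cKO 1 to 3. The knockout libraries were all below the WT libraries, which fits the genotype labels, although the log2 fold change of -2.47 had an adjusted p of 0.927 by limma. Total reads were 18943595 to 42070531 for a library. WT 3 stood apart from the other libraries: of 18410 genes tested, it held the highest value for 30.5% and the lowest for 40.4%. The fold changes of the subunit genes and the list medians are therefore given with and without it. The libraries with Y-linked reads were WT 2, WT 3 and Hdac2 cKO 2, so that sex also varied within the groups.

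No AMPA or kainate subunit gene passed the test between genotypes, and neither did any other gene (0 of 18410, 0%, by limma with Benjamini-Hochberg adjustment at 0.05). DESeq2, run as an alternative, called 26 of 17912 genes (0.145%), none of them a subunit gene. At an unadjusted limma p under 0.05 there were 341 genes (1.85%), also without a subunit gene. Grik1 was the 1 subunit gene with no overlap between the groups, as were 4.63% of all genes in the same direction and 3.91% in the opposite one. The fold changes below are on log2 (normalised count + 1), knockout minus WT, each with its SE and adjusted p from limma, and with n = 3 for each group.

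**Figure D1:**
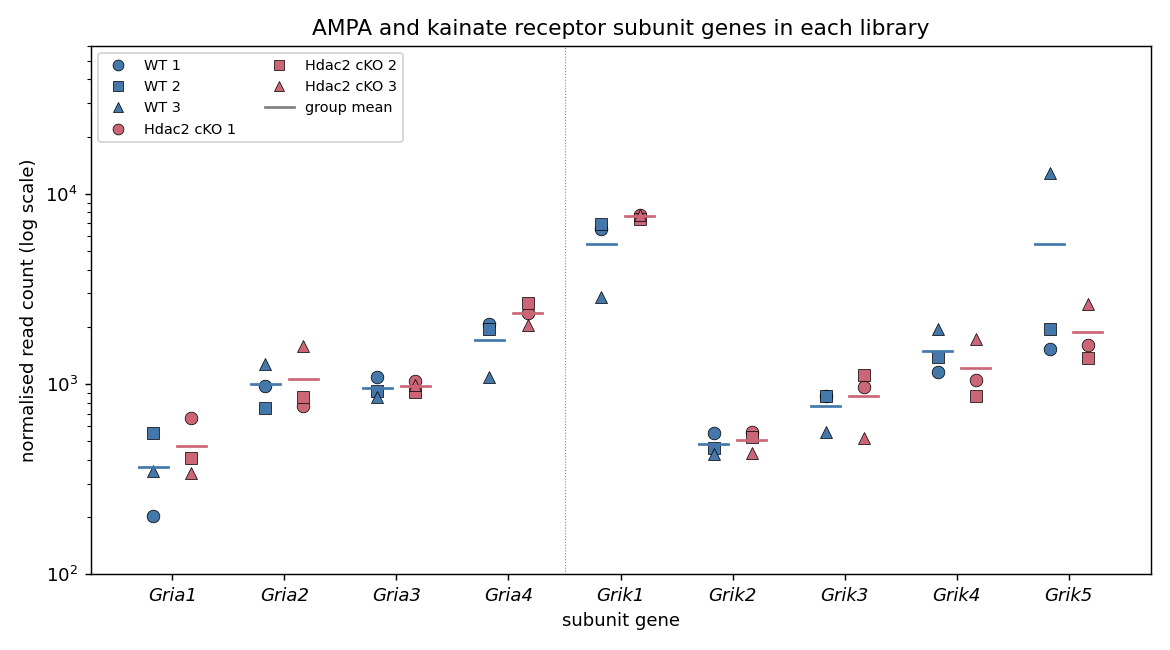
Normalised count (log axis) of each subunit gene in the 6 libraries, with symbols for single libraries and horizontal lines for the group means. Grik1 is the 1 gene whose groups do not overlap, and the Grik5 point of WT 3, at 12858, lies apart from the other 5 libraries, at 1374 to 2631.

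Among the AMPA subunits, Gria4 had the highest level per kilobase of exon in every library. Its normalised count was 2077, 1937 and 1096 in the WT libraries and 2375, 2664 and 2044 in the knockout libraries. The low library was WT 3, and the groups overlapped only in that WT 1 exceeded Hdac2 cKO 3. GluA4 is the AMPA subunit known for rapid channel kinetics. This gave 1703 ± 531 in WT and 2361 ± 310 in the knockout (SD, n = 3 each), and a log2 fold change of 0.52 (SE 0.29, adjusted p = 0.927 by limma). The 95% confidence interval ran from -0.16 to 1.19. The exact two-sided permutation p was 0.2, where 3 against 3 libraries cannot give less than 0.1. Without WT 3 the log2 fold change was 0.23.

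Gria2 encodes the subunit that makes edited AMPA receptors nearly impermeable to calcium. It measured 981, 744 and 1282 in the WT libraries and 763, 852 and 1584 in the knockout libraries. The 2 libraries numbered 3 were the highest in their groups, and the other 4 lay between 744 and 981 in both genotypes. The WT mean was 1002 ± 269 and the knockout mean 1066 ± 451 (SD, n = 3 each). On the log2 scale the fold change was 0.05 (SE 0.35, adjusted p = 0.981 by limma). The interval, from -0.76 to 0.86, leaves room for a change in either direction. Without WT 3 the value was 0.24, and without Hdac2 cKO 3 it was -0.28.

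Gria3, which encodes GluA3 and lies on the X chromosome, varied least of the 9 genes. Its values were 1084, 925 and 857 in the WT libraries and 1041, 906 and 992 in the knockout libraries. The highest library was only 1.27 times the lowest, and the knockout values lay within the WT range. The log2 fold change was 0.04 (SE 0.20, adjusted p = 0.971 by limma), with an interval from -0.43 to 0.51, and -0.03 without WT 3. Its residual SD was lower than that of all but 5.06% of the genes tested.

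Gria1 encodes GluA1, a subunit whose delivery to synapses is regulated by phosphorylation. It measured 202, 551 and 351 in the WT libraries and 665, 410 and 340 in the knockout libraries. Each group held low and high libraries, and the ranges overlapped widely. The lowest value rested on 229 reads. With reads taken as independent, counting error alone gives a 95% Poisson interval of 177 to 230 normalised counts. The spread between WT libraries was wider than this interval. The log2 fold change was 0.41 (SE 0.43, adjusted p = 0.927 by limma) and 0.44 without WT 3. It rested on single libraries, as it was 0.042 without WT 1, 0.14 without Hdac2 cKO 1 and 0.76 without WT 2, and it was 0.027 with array weights. It was 1.23 between the libraries without Y-linked reads and -0.10 between those with them.

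Grik1 had the highest level per kilobase of the kainate subunit genes in 5 of the 6 libraries. It measured 6519, 6942 and 2878 in the WT libraries and 7735, 7337 and 7761 in the knockout libraries. All knockout libraries were above all WT libraries, and WT 3 was at 0.442 times the lowest other library. GluK1 is the subunit of the kainate receptors of small-diameter sensory neurons. The WT mean was 5446 ± 2234 and the knockout mean 7611 ± 238 (SD, n = 3 each). On the log2 scale the fold change was 0.59 (SE 0.35, adjusted p = 0.927 by limma), or 1.5-fold. Its interval ran from -0.23 to 1.40, and the exact two-sided permutation p was 0.1, the smallest this design allows. Leaving out WT 3 brought the log2 fold change to 0.18, or 1.13-fold, and array weights on all libraries brought it to 0.15. Within the libraries with Y-linked reads, which include WT 3, the difference was 0.71, and within those without them it was 0.25. Hdac2 cKO 2 against WT 2 alone gave 0.08. In bulk tissue, a different number of cells of a type and a different amount of RNA in each cell cannot be told apart.

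Markers of nociceptors, the small-diameter neurons, were read beside Grik1. For the non-peptidergic class the summed normalised count was 55172, 53971 and 39274 in the WT libraries and 61574, 58774 and 66788 in the knockout libraries, without overlap of the groups. Of the 8 markers, 7 were higher and 1 was lower in the knockout means, none passed the test, and the median log2 fold change was 0.46, or 0.23 without WT 3. Ret, the receptor tyrosine kinase for GDNF-family ligands and the highest of these markers, was 16717, 18154 and 8298 in the WT and 22056, 19517 and 21488 in the knockout libraries. Ret thus had the same low library as Grik1, and its groups also did not overlap, as for 4.63% of all genes in this direction. The second highest marker, Scn11a, a sodium channel gene, had overlapping groups and a log2 fold change of 0.17, or 0.0015 without WT 3. Of the 7 markers of peptidergic nociceptors, 5 were higher and 2 lower, none passed the test, and the median was 0.31, or 0.38 without WT 3. Their sum was not low in WT 3, at 85863 against 52394 to 70959 elsewhere. The part of these cells in the Grik1 values was not tested.

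Grik2 and Grik3 encode the other kainate subunits able to form channels by themselves. Grik2 was 554, 463 and 429 in the WT libraries and 558, 530 and 433 in the knockout libraries. The groups covered almost the same range, with the libraries numbered 3 at the low end of both. Its log2 fold change was 0.07 (SE 0.23, adjusted p = 0.959 by limma), with an interval from -0.47 to 0.62, and -0.0077 without WT 3. The residual SD of Grik2 was lower than that of all but 11.2% of the genes tested.

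Grik3 was 869, 862 and 558 in the WT libraries and 971, 1115 and 521 in the knockout libraries. Here too both libraries numbered 3 were the lowest, and Hdac2 cKO 3 lay below every WT library. The log2 fold change was 0.14 (SE 0.35, adjusted p = 0.948 by limma). It was -0.07 without WT 3 and 0.48 without Hdac2 cKO 3.

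Grik4 and Grik5, the high-affinity partners, were the 2 subunit genes with a lower knockout mean. Grik4 was 1153, 1392 and 1946 in the WT libraries and 1052, 868 and 1717 in the knockout libraries. The knockout library was the lower in each of the 3 same-numbered pairs, but the group ranges overlapped. The log2 fold change was -0.33 (SE 0.32, adjusted p = 0.927 by limma), with an interval from -1.09 to 0.43. Without WT 3 it was -0.13, without Hdac2 cKO 2 -0.12, without WT 1 -0.50 and without Hdac2 cKO 3 -0.61. Between the libraries with Y-linked reads it was -0.92 and between those without them 0.22.

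Grik5 was 1532, 1958 and 12858 in the WT libraries and 1602, 1374 and 2631 in the knockout libraries. A single library, WT 3, set the WT mean of 5449 ± 6420 (SD, n = 3), against 1869 ± 670 (SD, n = 3) in the knockout. The log2 fold change was -0.91 (SE 0.77, adjusted p = 0.927 by limma), and its interval ran from -2.71 to 0.89. Leaving out WT 3 brought it to 0.05, so the lower knockout mean rested on that library. The count tests on all libraries gave -1.54 (DESeq2) and -1.59 (edgeR, TMM scaling), and array weights gave -0.38. The WT 3 value was 4.89 times the next highest library. It came from 12580 reads, so counting error is small there. Of all genes tested, 169 (0.918%) were higher in WT 3 than in the next library by at least this factor.

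A gene near Grik5 and other cell markers were also read in WT 3. Grik5 lies on the minus strand of mm10 at chr7:25009849-25072346, and its exons overlapped those of no other annotated gene. Its neighbour Zfp574 was 783 in WT 3 against 506 to 597 elsewhere. Summed satellite glia markers were 359435 in WT 3 against 117428 to 166379 in the other libraries, and summed pan-neuronal markers 404087 against 253477 to 328625. These sums follow their most abundant genes: the median marker, centred over the libraries on the log2 scale, was -0.27 in WT 3 for satellite glia, the lowest of the 6 libraries, and 0.07 for the pan-neuronal list, within the -0.20 to 0.16 of the others. Members of the pan-neuronal list went both ways in WT 3. Uchl1 and Prph, the most abundant by mean, were highest there, at 131182 against 53492 to 88972 and 121807 against 50195 to 69504. Snap25, a synaptic protein gene chosen after its values were seen, was lowest there, at 24161 against 34850 to 39345. The part of these in the Grik5 value was not tested.

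**Figure D2:**
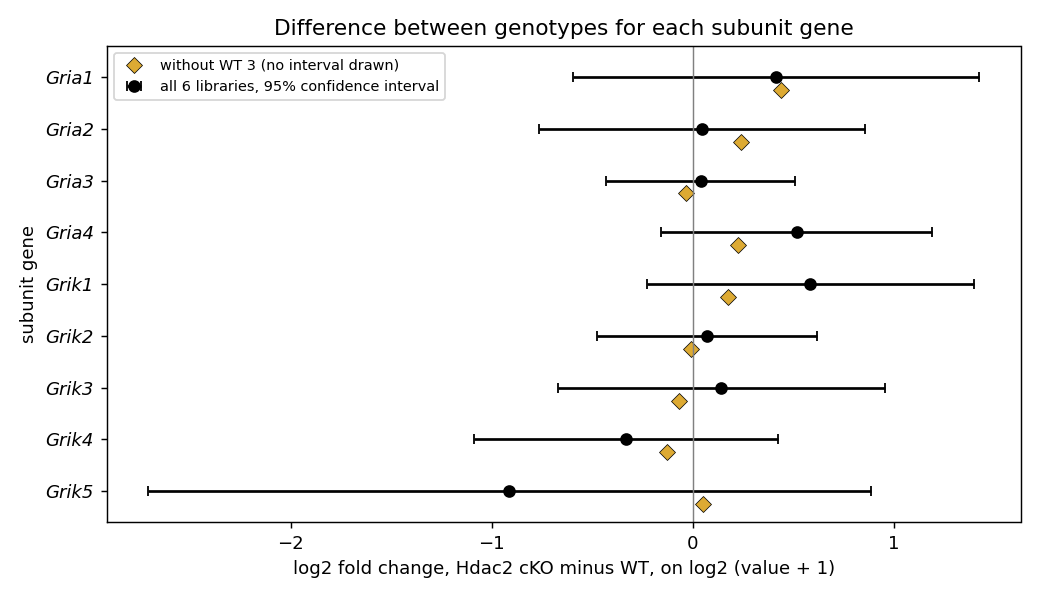
Log2 fold change (knockout minus WT, on log2 of normalised count + 1) of each subunit gene, with its 95% confidence interval over all 6 libraries as a black point and bar, and the value without WT 3 as a diamond. Every interval includes 0, and the diamonds lie between -0.13 for Grik4 and 0.44 for Gria1.

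Of the 9 subunit genes, 7 had a higher and 2 a lower knockout mean on the log2 scale, with a median log2 fold change of 0.07. Over all genes tested the median was 0.056 and 55.3% were higher, and without WT 3 that median was -0.010. The majority among the subunit genes was not stable. Without WT 3 it was 5 higher and 4 lower, with a median of 0.052. With all libraries, their median was -0.11 with a correction for gene length and -0.11 with one for GC content. Same-numbered pairs gave a higher knockout value in 3 of 3 pairs for Gria4, Grik1 and Grik2. For Grik4 this was the case in 0 of 3 pairs. When the libraries with Y-linked reads and those without were compared separately, Gria4 (0.87 and 0.09) and Grik1 were higher in the knockout in both sets, and the other 7 genes differed in sign between the sets. Among these 7 were Gria2 (-0.20 and 0.16), Gria3 (0.03 and -0.09), Grik2 (0.25 and -0.17), Grik3 (0.68 and -0.29) and Grik5 (-1.87 and 0.42). Each set held 3 libraries, with 1 library in one group, so it gives values without a test. The set with Y-linked reads held WT 3. Hdac2 cKO 2 against WT 2 alone gave 0.46 for Gria4, 0.08 for Grik1 and -0.51 for Grik5. In this pair Gria2 was 0.19 and Gria3 -0.03, so for these genes the difference in sign rested on WT 3.

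Levels of different genes were compared as normalised counts per kilobase of annotated exon. In this unit the order of the means over the 6 libraries was Grik1 (971), Grik5 (708), Gria4 (322), Grik4 (227), Gria3 (98.1), Grik3 (90.9), Gria1 (69.5), Gria2 (66.5) and Grik2 (37.3). Grik1 was above Grik5 in 5 of 6 libraries, with WT 3 the exception. The place of Grik5 rested on WT 3: over the other 5 libraries its mean was 352, as was that of Gria4, and it was above Gria4 in 3 of 6 libraries. Neighbours in this order had ranges that overlapped, except that Grik4 was above Gria3 and Gria2 above Grik2 in 6 of 6 libraries without overlap. With the length of the longest coding transcript in place of all exons, Gria2 rose to 99.7 and moved to the 6th place. Much of its annotated exon length lies outside that transcript. Grik1 and Gria3 rose to 2219 and 186 with this length and kept their places.

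The makeup of each family was given as shares of its summed level per kilobase of all annotated exons. The size of these shares depends on that choice of length. Gria4 made up 43.3 to 66.3% of the AMPA sum. Grik1 made up 56.5 to 65.5% of the kainate sum in 5 libraries and 12.8% in WT 3. Grik5 made up 15.9 to 24.9% in the same 5 libraries and 74.6% in WT 3. Gria4 thus led the AMPA family in every library, whereas the kainate family was led by Grik1 in all libraries but WT 3. The AMPA sum per kilobase was 492 ± 79.1 in WT and 620 ± 32.5 in the knockout (SD, n = 3 each), without overlap of the groups. WT 3 was the lowest library, at 401, and the mean of WT 1 and WT 2 was 538. The difference was not tested. The kainate sum was 2237 ± 957 in WT and 1833 ± 192 in the knockout. This direction rested on WT 3, as the mean of WT 1 and WT 2 was 1687. Without Grik5 the kainate sum was 1183 ± 293 in WT and 1471 ± 66.3 in the knockout, and the mean of WT 1 and WT 2 was 1350.

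**Figure D3:**
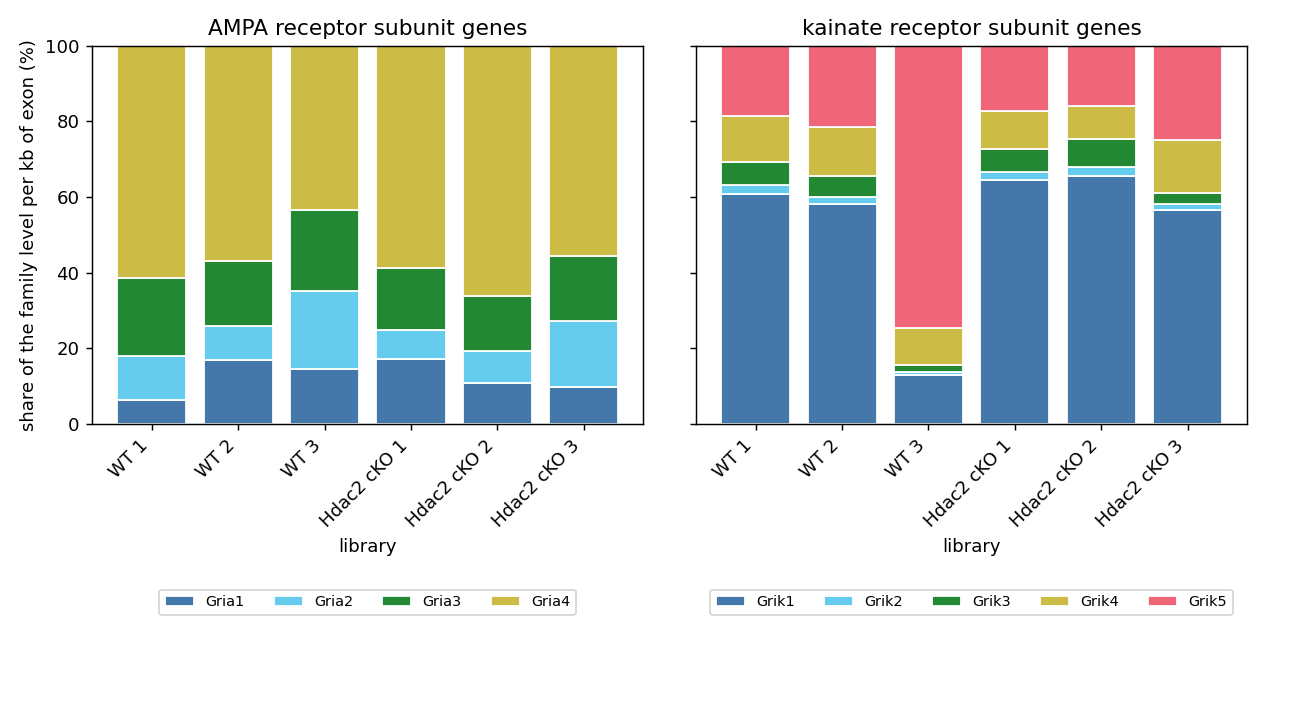
Share (%) of each subunit gene in the summed level per kilobase of its family, one stacked bar for each of the 6 libraries, with the AMPA genes on the left and the kainate genes on the right. Gria4 is the largest AMPA share in every library, and Grik1 the largest kainate share in all but WT 3, where Grik5 takes 74.6%.

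The subunit genes also differed in how their values varied over the 6 libraries. As a measure of likeness, each gene's log2 values were centred on their mean, and the root mean square difference between 2 profiles was taken, in log2 units over the 6 libraries. Among the subunit genes the closest pairs were Gria3 with Grik2 (0.13) and Gria4 with Grik1 (0.19). The latter pair shared a low WT 3. Over all genes tested, the 3 profiles most like Grik1 were those of Rab39b, a small GTPase gene (0.046), Lrrc8c, a subunit of volume-regulated anion channels (0.056), and Ret (0.063). Rab39b was 1520, 1590 and 662 in the WT and 1722, 1768 and 1694 in the knockout libraries.

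The gene most like Gria2 was Mbtd1 (0.066), and the one most like Gria3 was Plcb3 (0.035), a phospholipase C gene. Gria4 was most like Acvr2a (0.044), an activin receptor gene, and Gria1 most like the noncoding gene C130060C02Rik (0.21), whose values were only 4.41 to 13.1. With a pseudocount of 5, Oasl1 (0.22) took this place. Grik2 was most like Mapkap1 (0.028), a subunit gene of the mTORC2 kinase complex, and Grik3 most like Sync (0.059), which encodes an intermediate filament protein. Grik4 was most like Dalrd3 (0.075) and Grik5 most like 9430038I01Rik (0.095). The latter was 772 in WT 3 and 83.8 to 151 elsewhere, so it had the same single high library as Grik5. These distances describe only these 6 libraries, each scaled by its own size factor. Whether the libraries shared their preparation was not tested.

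Genes that work with the subunits were counted by role, and none passed the test. Of 18 AMPA receptor auxiliary and assembly genes, 10 had a higher and 8 a lower knockout mean, with a median log2 fold change of 0.11. This median was 0.017 without WT 3, -0.031 without both libraries numbered 3 (7 higher, 11 lower) and -0.085 with array weights (6 higher, 12 lower). Cacng7, which encodes a TARP auxiliary subunit, was the highest of them, at 2537 ± 811 in WT and 2384 ± 266 in the knockout (SD, n = 3 each). Frrs1l and Cpt1c, which act in receptor assembly, were 2285 ± 1632 and 1453 ± 550 in WT and 1541 ± 315 and 1276 ± 275 in the knockout. Frrs1l was highest in WT 3, at 4169 against 1301 to 1897 elsewhere.

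The kainate receptor auxiliary genes Neto1 and Neto2 lay in opposite directions without overlap of the groups, and neither passed the test. Of all genes tested, 4.63% were without overlap and higher in the knockout, and 3.91% without overlap and lower. Neto2 was 666, 466 and 221 in the WT libraries and 751, 685 and 799 in the knockout libraries, all knockout libraries being higher. Its log2 fold change was 0.86 (SE 0.40, adjusted p = 0.927 by limma) and 0.42 without WT 3. Neto1 was 271, 305 and 315 in the WT and 257, 224 and 257 in the knockout libraries, all knockout libraries being lower, with a log2 fold change of -0.27 (SE 0.24, adjusted p = 0.927 by limma). Both encode transmembrane partners that modulate kainate receptor gating. C1ql3, a secreted synaptic ligand gene, was 89.1 ± 62.1 in WT and 78.5 ± 21.8 in the knockout, and C1ql2 was below the filter on low values.

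Of 14 scaffold, clustering and trafficking genes, 10 were higher and 4 lower in the knockout means, with a median log2 fold change of 0.15. Without WT 3 there were 7 higher and 7 lower (median 0.015), without both libraries numbered 3 there were 3 higher and 11 lower (-0.046), and with array weights 4 higher and 10 lower (-0.12). The highest were Nsf (log2 fold change -0.03), a membrane fusion ATPase that binds GluA2, Epb41l1 (0.48) and Nptxr (-0.04). Epb41l1, a cytoskeletal anchor of GluA1, was 1761 in WT 3 and 4995 to 8120 elsewhere, and its value without WT 3 was -0.20. Of 12 kinase and phosphatase genes, 8 were higher and 4 lower, with a median of 0.14, or 0.12 without WT 3 and -0.0076 with array weights. Ppp3ca, a calcineurin catalytic subunit, had a log2 fold change of 0.26, Camk2g 0.16 and Prkca 0.33. Without WT 3 these were 0.59, 0.093 and 0.16. Ppp3ca was highest in the libraries numbered 3, at 38085 in WT 3 and 54899 in Hdac2 cKO 3, against 17676 to 20939 elsewhere.

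Genes of the family of adenosine editing enzymes were also read. Adarb1, which encodes ADAR2, the enzyme of the GluA2 Q/R site, was 1894, 1773 and 1431 in the WT libraries and 1976, 1716 and 1446 in the knockout libraries. Its log2 fold change was 0.01 (SE 0.22, adjusted p = 0.994 by limma), with overlapping groups. Adar was 0.54 (SE 0.40) with WT 3 and 0.08 without it, and Adarb2 was below the filter on low values.

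Of 9 genes of glutamate supply and clearance, 4 were higher and 5 lower in the knockout means, with a median log2 fold change of -0.13, or -0.052 without WT 3 and 0.0082 without Hdac2 cKO 3. Slc17a6, the vesicular glutamate transporter VGLUT2, was 6714, 4818 and 4276 in the WT and 7281, 7449 and 6956 in the knockout libraries. All knockout libraries were higher, as for 4.63% of all genes tested. The log2 fold change was 0.48 (SE 0.22, adjusted p = 0.927 by limma) or 0.35 without WT 3. Glul, glutamine synthetase, had a log2 fold change of -0.16. The delta receptor gene Grid1, a relative in the same receptor superfamily, was at 0.11, and at -0.21 without WT 3.

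**Figure D4:**
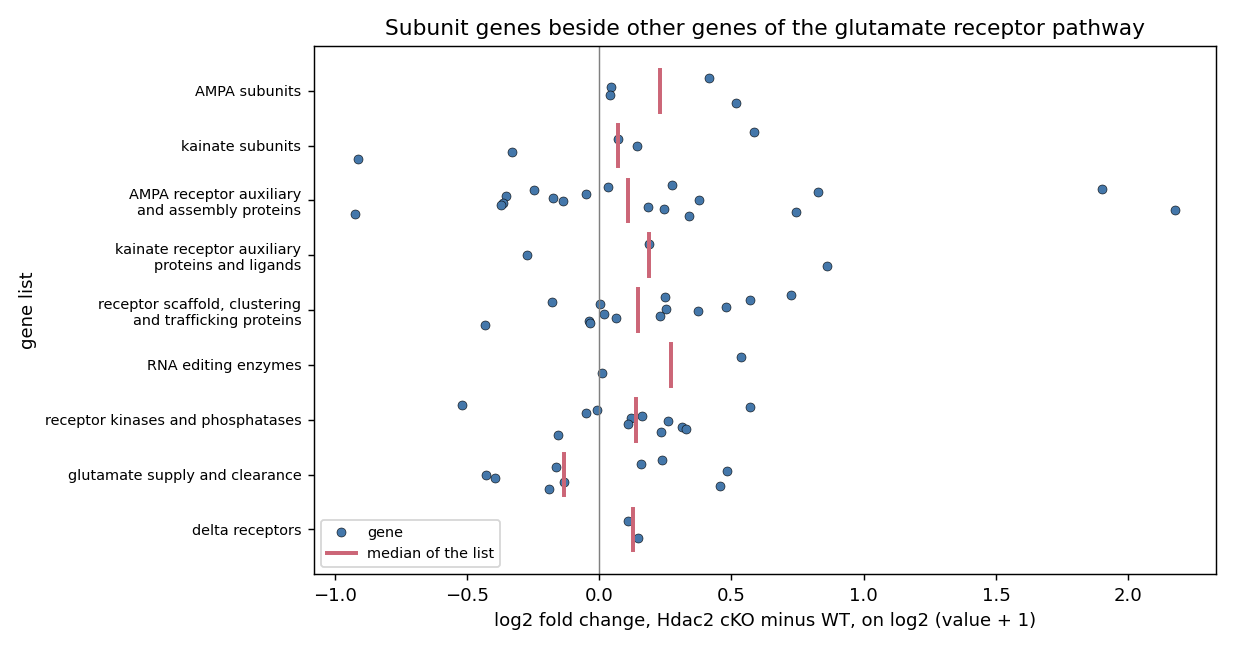
Log2 fold change (knockout minus WT, on log2 of normalised count + 1) of every tested gene of the AMPA and kainate subunits and of each list of receptor partners, one point for each gene, with the list median as a vertical line. The medians lie between -0.13 for glutamate supply and clearance and 0.27 for the 2 editing enzymes (-0.052 and -0.013 without WT 3), and the 2 points farthest to the right are Cacng3 and Shisa6, which had no reads in WT 3.

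The other glutamate receptor genes were set beside them. Of the 7 NMDA receptor subunit genes, 2 were higher and 5 lower in the knockout means, with a median log2 fold change of -0.43, or -0.24 without WT 3. Of the 8 metabotropic glutamate receptor genes, 5 were tested, 3 higher and 2 lower, with a median of 0.17, or 0.12 without WT 3. None passed the test, and the difference of these medians from that of the AMPA and kainate subunits was not tested.

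Marker lists of other cells were read beside the subunit genes. Spinal cord neuron markers summed to 136 to 278 normalised counts for a library. Of the 8, 5 were below the filter on low values (Gad2, Slc32a1, Slc6a5, Chat and Mnx1), among them Slc32a1, the inhibitory vesicular transporter, at 0 to 7.06. Chat, the acetylcholine synthesis enzyme of motor neurons, was 85.9 in WT 3 and 0 to 1.97 elsewhere. Skeletal muscle markers summed to 9657, 3968 and 1785 in the WT and 257, 1203 and 129 in the knockout libraries, without overlap. Of the 8 markers of myelinating Schwann cells, 1 was higher and 7 lower in the knockout. Their median log2 fold change was -0.72, or -0.66 without WT 3. Their part in the subunit values was not tested. The sensory neuron markers Uchl1 and Prph were at 53492 to 131182 and 50195 to 121807 in the 6 libraries, so that the labelled tissue showed its neuronal markers in all of them.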

How the data were processed

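Bulk RNA-seq of 6 dorsal root ganglion libraries, 3 WT and 3 Hdac2 cKO, was used, with groups and numbers from the sample titles. Per the labels' protocols, Trizol was used on flash-frozen tissue. Per the submitters' processing notes, the tools were HISAT2, SAMtools, featureCounts and DESeq2, with the build mm10. The sources used here give no versions, annotation, strand setting or handling of reads that map to several genes. The deposited signal values were reads counted for each gene and divided by 1 factor for each library, as 100% of values came out as whole reads within a tolerance of 0.01. Total recovered reads were 18943595 to 42070531. Among genes with few reads the share of even counts was 42.4% in WT 2 and 60.2 to 64.4% in the other libraries. The effect of this on the values and on the counting errors given, which take reads as independent, was not tested.

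limma 3.58.1 (R 4.3.3), with its trend and robust options, was fitted to log2 (value + 1) over the 18410 genes that reached 10 in 3 or more libraries. Two-sided p-values were adjusted by Benjamini-Hochberg and read at 0.05. A fold change on this scale understates that of low genes. Exact permutation tests used log2 values. Lengths, GC content and coordinates came from GENCODE M21, which held 54409 of the 54532 identifiers. The count tests, edgeR 4.0.16 (0 genes called) and DESeq2 1.42.0 (26 genes called), were run on the recovered reads. The other alternatives were other pseudocounts, filters, scalings, weights, length and GC corrections, a sex term, the replicate block and leaving out libraries. The fits were run on simulated data, but a pass mark was set only for limma, at a spread between libraries below that of these data. The simulation thus does not show what size of change could be found here.

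The subunit genes and gene lists were chosen with earlier results of these data known. Genes named were the 9 subunits, the 3 highest members of each partner list (all of a list of 4 or fewer), the 2 highest of each marker list, and the genes with the most similar profiles (3 for Grik1, 1 for each other subunit). Genes outside this rule were chosen after their values were seen or to check a label. Among them were Hdac2, the neighbour of Grik5, Snap25, Chat, Slc32a1 and those of the closing section. Some genes that the rule names are not reported here. Deviations from the group means correlated by 0.40, 0.15 and 0.42 between libraries of the same number, so the numbers were taken to pair the libraries. This pairing comes from the values only. WT 1 and Hdac2 cKO 2 also correlated, by 0.34, so the pairing is uncertain.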

Additional observations from a re-analysis of the deposited data

How the results depend on the processing

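None of the 9 subunit genes passed the threshold in any of 24 alternatives (216 values, of which 191 kept their direction and 25 did not). The lowest adjusted p of a subunit gene was 0.095, for Gria4 with array weights. In place of the 0 genes called among all genes, DESeq2 called 26 (4 higher, 22 lower), array weights 567 (311 higher, 256 lower) and limma without both libraries numbered 3 called 5. DESeq2 with the replicate block, added after seeing the data, called 59. The replicate block in limma called 0 genes and changed no call. Leaving out any 1 library called 0 genes. The median log2 fold change of the 9 subunit genes was -0.11 with the length correction and -0.11 with the GC correction, each the same with the replicate block, and 0.027 to 0.18 when 1 library was left out. Gria2 was -0.016 with the sex term, -0.17 with the length correction, -0.15 with the GC correction, -0.084 without both libraries numbered 3 and -0.28 to 0.25 without 1 library. Gria3 was -0.033, -0.11, -0.11, -0.044 and -0.033 to 0.14 under these settings in the same order. Grik2 was -0.12 with the length correction, -0.11 with the GC correction and -0.0077 to 0.18 without 1 library. For these 3 genes the corrections gave the same values with the replicate block. Without 1 library, Gria1 was 0.042 to 0.76, Gria4 0.23 to 0.69, Grik1 0.18 to 0.81, Grik3 -0.072 to 0.48, Grik4 -0.61 to -0.12 and Grik5 -1.48 to 0.052. The cause of these changes was not tested. Each subunit gene had at least 229 reads in every library.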

Other observations

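Some partner genes were at 0 in WT 3 alone. Cacng3, which encodes a TARP auxiliary subunit of AMPA receptors, and Shisa6, another AMPA receptor partner, had no reads in WT 3 and at least 30 normalised counts in each of the other 5 libraries. A count of 0 there allows a value of up to 3.07, for counting error only and with reads taken as independent. Of all genes, 124 had this pattern in WT 3. In each other library, at most 1 gene was at 0 there and at 30 or more elsewhere. These genes were chosen after their values were seen.

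Grin3a, the NMDA receptor subunit gene for GluN3A, had higher values in every knockout library than in any WT library, as did 4.63% of all genes tested. It was 630, 420 and 488 in the WT libraries and 758, 772 and 756 in the knockout libraries. Its log2 fold change was 0.59 (SE 0.23, adjusted p = 0.927 by limma) with WT 3 and 0.57 without it, so it did not pass the test.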
